A study of Homo sapiens with 6 samples.

Results

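Spliceosomal small nuclear RNAs and 7SK were followed as 6 entries of a table of chromatin-bound RNA: U1, U2, U4, U5, U6 and 7SK, chosen by name out of 15641 entries. The table counts reads over repeat names, so each entry adds up every genomic copy that carries the name, functional genes and copies scattered elsewhere alike. H9 cells, a long-established line of human embryonic stem cells, were fractionated and the RNA on chromatin was sequenced. There were 3 libraries of cells labelled naive and 3 of cells labelled primed, the state taken from the treatment label. The labels give all 6 the same growth text, culture in RSeT medium for the naive state, and 1 cell line is the only genotype. The comparison asks how much of these RNAs lies on chromatin in naive against primed cells, first relative to all counts and then to counts outside the tandem centromere repeat called alpha satellite (entry ALR/Alpha). Separate cultures are not stated for the libraries, so a p-value here speaks at most of library-to-library spread, which may be technical.

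The spliceosome removes introns with the help of small nuclear RNAs, each packed with proteins into a particle. U1 binds the start of an intron and U2 its branch point. U4, U5 and U6 then arrive together, with U4 paired to U6 until U4 is released and U6 forms the catalytic centre with U2. Much splicing takes place while the transcript is still on chromatin. The 7SK RNA is not part of the spliceosome: with HEXIM and LARP7 proteins it holds the kinase P-TEFb inactive and so restrains the elongation of RNA polymerase II. RNA polymerase II makes U1, U2, U4 and U5, while RNA polymerase III makes U6 and 7SK.

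Reference RNAs are shown because the entries are families of copies, with both U4 genes because U4 is the one entry that the edgeR fit below called, a call that 8 of 20 alternatives did not make. The sequences and positions are those of GENCODE 29 (GRCh38), written as DNA from the 5′ end. In U1 the capitals mark the stretch that pairs across the junction of an exon and the start of its intron. In U2 they mark the bases that pair with the branch site. In RNU4-1 and RNU4-2 they mark the 4 bases of 141 at which both genes differ. In 7SK they mark GATC, the motif repeated in the 5′ hairpin that HEXIM binds, of which a search of this strand found 3.
RNU1-1 (chr1:16514122-16514285, minus strand, 164 bases): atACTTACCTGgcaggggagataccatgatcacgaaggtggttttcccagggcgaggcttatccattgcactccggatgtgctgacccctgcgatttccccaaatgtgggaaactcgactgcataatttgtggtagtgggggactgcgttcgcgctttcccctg
RNU2-1 (chr17:43233787-43233977, minus strand, 191 bases): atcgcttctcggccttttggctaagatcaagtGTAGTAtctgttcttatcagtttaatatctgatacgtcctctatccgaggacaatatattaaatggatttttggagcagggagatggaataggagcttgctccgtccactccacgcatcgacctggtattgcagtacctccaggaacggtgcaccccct
RNU4-1 (chr12:120293097-120293237, minus strand, 141 bases): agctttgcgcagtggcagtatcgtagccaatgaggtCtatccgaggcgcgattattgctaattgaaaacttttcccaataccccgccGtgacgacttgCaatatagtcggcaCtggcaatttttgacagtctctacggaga
RNU4-2 (chr12:120291763-120291903, minus strand, 141 bases): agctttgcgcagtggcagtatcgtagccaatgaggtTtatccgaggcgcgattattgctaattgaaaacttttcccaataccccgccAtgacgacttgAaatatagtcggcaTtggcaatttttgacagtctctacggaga
RN7SK, bases 1 to 120 of 328 (chr6:52995621-52995740, plus strand): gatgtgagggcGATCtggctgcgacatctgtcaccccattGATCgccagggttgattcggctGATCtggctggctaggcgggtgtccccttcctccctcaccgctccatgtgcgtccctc

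Each family has many near copies in that annotation. U6 has 5 genes with 2 distinct sequences, and 1271 further copies whose names mark them as pseudogenes. U1 has 15 genes, among them RNU1-1 to RNU1-4 with 1 shared sequence, and 117 marked copies. U4 has 2 genes and 88 marked copies, U5 has 5 genes and 26, U2 has 1 and 70, and 7SK has 1 and 293. The sources used here do not give the repeat annotation behind the deposited table, its strand setting or how multi-mapping reads were treated. Sense and antisense reads therefore cannot be told apart, and a count cannot be assigned to one gene of a family.

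Total counts ran between 9748202 and 17791046 in naive libraries and between 118793 and 8106871 in primed libraries. Primed library 2 was the shallow one, where 3 counts equal 25.3 counts per 1000000 (CPM). Alpha satellite held 25.3% to 42.9% of naive counts and 0.221% to 0.625% of primed counts. The large and small ribosomal RNA entries held 0.162% to 6.07% of naive counts, lowest in naive library 3, and 4.03% to 17.7% of primed counts, highest in primed library 1. The table lists repeats and no gene markers, so the labels could be checked only against repeats. HERVH-int, a retroviral repeat whose transcription is typical of human pluripotent cells, was at 20550 to 26620 CPM in naive libraries, against 17840 to 17960 in primed ones, the shallow library included. HERVK-int, a retroviral repeat known for its transcription in naive human cells, was at 5589 to 14330 CPM scaled by TMM (trimmed mean of M-values) factors in naive libraries, against 804 to 987 in primed ones. On that scale HERVH-int was at 24090 to 42440 in naive libraries, against 11940 to 16230 in primed ones. Other repeats listed for such a check, LTR7, LTR7Y, LTR5_Hs and SVA_D, are not reported here.

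Summed over the 6 entries, these RNAs made up 0.158% ± 0.00968 of all counts in naive libraries, against 0.283% ± 0.0310 in primed ones (SD, n = 3 each). Outside alpha satellite they made up 0.243% ± 0.0363 in naive libraries and 0.284% ± 0.0306 in primed libraries. The 5 spliceosomal RNAs alone took 0.0592%, 0.0554% and 0.0532% of all counts in naive libraries 1 to 3, against 0.118%, 0.0943% and 0.117% in primed libraries 1 to 3. Outside alpha satellite they took 0.0793%, 0.0970% and 0.0811% in naive libraries 1 to 3, against 0.118%, 0.0949% and 0.118% in primed libraries 1 to 3. Naive library 2 then stood above primed library 2, whose 95% Wilson interval ran from 0.0789% to 0.114%. Sums were not tested. In such bulk libraries, fewer cells with an RNA and less of it per cell cannot be told apart.

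Relative to all counts, 4 of the 6 RNAs (U1, U2, U5 and 7SK) were lower in every naive library than in every primed one. Over all 3219 entries with enough counts to test, 34.3% had groups separated that way and 1.68% the opposite way, in libraries where alpha satellite takes a large part of naive counts. Relative to counts outside alpha satellite, U2 was the only one of the 6 whose groups did not overlap, lower in naive libraries, against 12.8% of all entries separated that way and 11.3% the opposite way. An edgeR quasi-likelihood fit with TMM factors (which scale each library by its bulk of entries) called 1 of the 6 lower and 0 higher at a Benjamini-Hochberg adjusted p under 0.05. That entry was U4. Of all entries, 7.77% were called lower and 4.94% higher. At an unadjusted p under 0.05 the fit likewise gave 1 lower and 0 higher, while DESeq2 called 0 of the 6 in either direction, with 0 at an unadjusted p under 0.05. DESeq2 called 5.46% of the entries it tested lower and 4.55% higher at an adjusted p under 0.05. Shares of all entries at the unadjusted threshold are not reported here. The median log2 change of the 6 was -0.09 with TMM factors, against -0.0046 for all tested entries and 0.21 for those other than simple repeats.

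**Figure D1:**
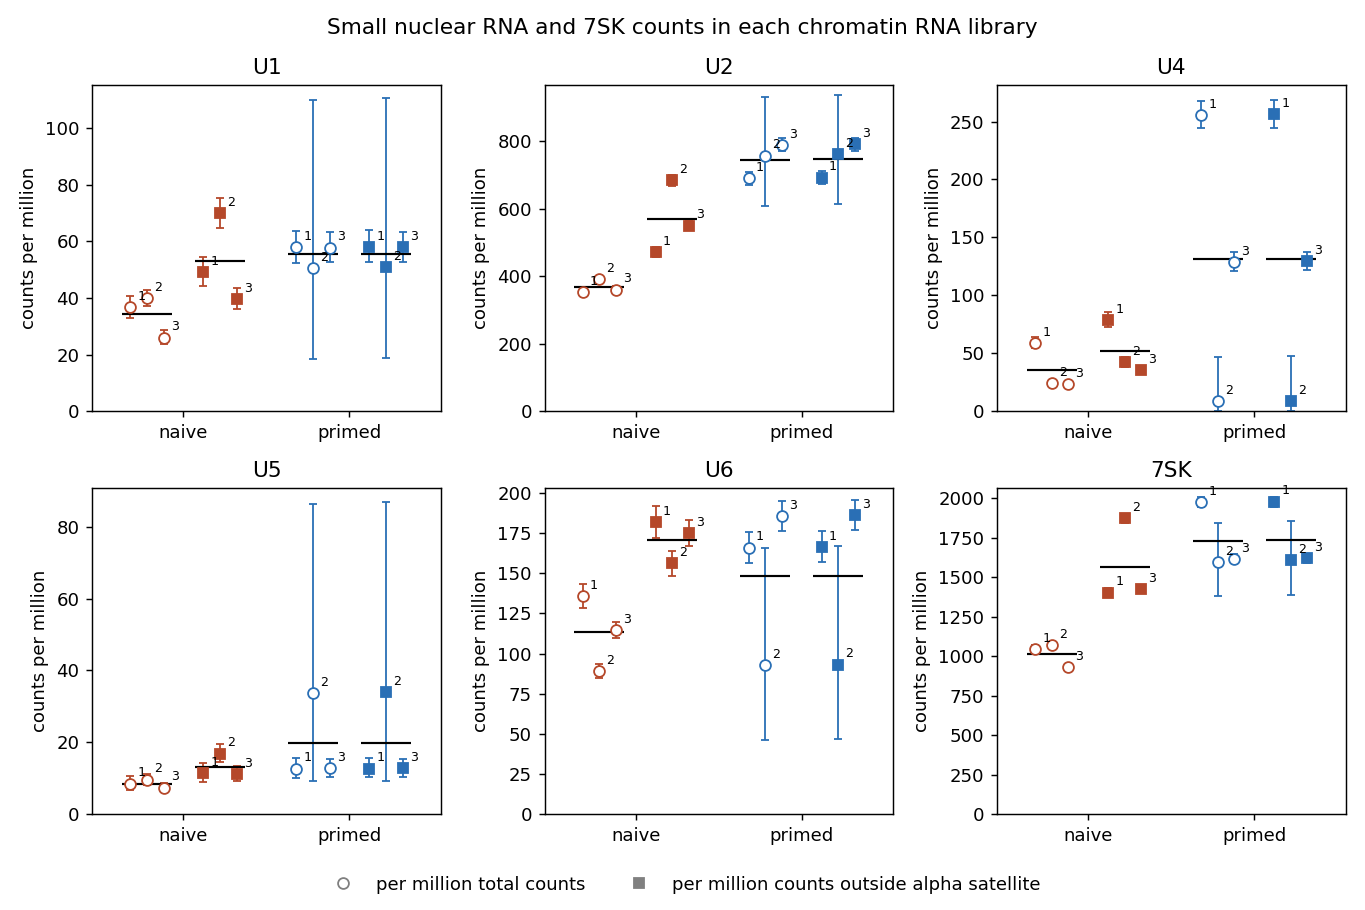
CPM of each RNA in naive (left) and primed (right) libraries, with open circles for CPM of total counts and filled squares for CPM of counts outside alpha satellite. Numbers are libraries, bars exact 95% Poisson intervals for counting error and black lines group means; U2 separates the groups under both denominators, while U4 in primed library 2 lies at 8.42 CPM of total, below the naive libraries.

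U1, which opens splicing by binding the start of the intron, was at 36.7, 39.9 and 26.0 CPM of total in naive libraries 1 to 3. In primed libraries 1 to 3 it was at 57.8, 50.5 and 57.7. The groups did not overlap, with means of 34.2 ± 7.29 in naive libraries, against 55.4 ± 4.20 in primed ones (SD, n = 3 each; exact two-sided permutation p = 0.1, adjusted over the 6 RNAs 0.15). Outside alpha satellite the values were 49.1, 69.9 and 39.7 CPM in naive libraries 1 to 3, against 58.0, 50.8 and 57.9 in primed libraries 1 to 3. The groups then overlapped, with naive library 2 the highest of all and naive libraries 1 and 3 the lowest. The means were 52.9 ± 15.5 in naive libraries, against 55.6 ± 4.11 in primed ones (SD, n = 3 each; exact two-sided permutation p = 0.9). The TMM fit gave a log2 change of -0.09 ± 0.26 (SE; edgeR adjusted p = 0.830).

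U2, the RNA that pairs with the branch point, was at 352, 391 and 361 CPM of total in naive libraries 1 to 3. In primed libraries 1 to 3 it was at 691, 758 and 789. All naive libraries lay well below all primed ones, with means of 368 ± 20.4 in naive libraries, against 746 ± 50.4 in primed ones (SD, n = 3 each). Outside alpha satellite the values were 471, 684 and 550 CPM in naive libraries 1 to 3, against 692, 762 and 792 in primed libraries 1 to 3. The groups still did not overlap, although naive library 2 came close to primed library 1. Both comparisons gave an exact two-sided permutation p of 0.1, the smallest that 3 against 3 can give. Adjusted over the 6 RNAs, p was 0.15 for total counts and 0.6 outside alpha satellite. The U2 mean outside alpha satellite in naive libraries was 76.0% of that in primed libraries. With ribosomal RNA also taken out of the total, U2 was at 608 ± 132 CPM in naive libraries, against 832 ± 34.0 in primed ones (SD, n = 3 each). The groups again did not overlap (exact two-sided permutation p = 0.1, adjusted over the 6 RNAs 0.6). The share of all entries separated under that denominator is not reported here. The TMM fit gave a log2 change of -0.31 ± 0.18 (SE), which did not pass (edgeR adjusted p = 0.257).

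U4 escorts U6 into the spliceosome. Its counts were 574, 431 and 390 in naive libraries 1 to 3, against 1839, 1 and 1045 in primed libraries 1 to 3. In CPM of total this is 58.9, 24.2 and 23.4 in naive libraries 1 to 3, against 256, 8.42 and 129 in primed libraries 1 to 3. Primed libraries 1 and 3 were the highest of the 6 and primed library 2 was the lowest, so the groups overlapped. The same held outside alpha satellite, with 78.8, 42.4 and 35.6 CPM in naive libraries 1 to 3, against 256, 8.47 and 129 in primed libraries 1 to 3. The means outside alpha satellite were 52.3 ± 23.2 in naive libraries, against 131 ± 124 in primed ones (SD, n = 3 each; exact two-sided permutation p = 0.4). That difference of -79.1 CPM was -16.6 without primed library 1 and -141 without primed library 2.

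The single U4 count in primed library 2 allows up to 46.9 CPM of total (exact 95% Poisson limit, counting error only). That limit lies above naive libraries 2 and 3 and below naive library 1 and the other primed libraries. At the rate of primed library 1 the depth of primed library 2 would give 30.4 U4 counts, and at the rate of primed library 3 it would give 15.3. The naive rates would give 6.995, 2.88 and 2.77. The 2 deep primed libraries also differed from each other, with U4 in library 1 at 8.10% of the 6 RNAs' counts and in library 3 at 4.62%. Primed library 1 also had the largest ribosomal share. With alpha satellite and ribosomal RNA both outside the library size the U4 log2 change was -1.77 (edgeR adjusted p = 0.0229), and with both left out of the table it was -1.74 (0.0400).

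In the TMM fit U4 fell in naive cells, with a log2 change of -1.68 ± 0.49 (SE; edgeR adjusted p = 0.0462). The call rested on single libraries. Without primed library 1 the change was -0.91 (edgeR adjusted p = 0.395), without naive library 2 -1.53 (0.0668), without naive library 3 -1.40 (0.0646) and without primed library 3 -1.88 (0.0544). It held without naive library 1 (-2.05, edgeR adjusted p = 0.00450) and without the shallow primed library 2 (-1.93, 0.0197). DESeq2 gave -1.44 with an SE of 1.14 (adjusted p = 0.462). Over 20 alternatives the U4 change stayed negative in every one, between -2.15 and -0.91, and passed in 12, with adjusted p from 5.55e-18 to 0.684. The lowest came from a fit in which the SE of U4, 0.165, was close to that of U2, 0.151. The passes with total counts (SE 0.27 for U4 and for U2) and with no low-count filter (0.201, against 0.190 for U6) had the same trait. The p-values of these fits do not measure the spread of U4 itself.

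**Figure D2:**
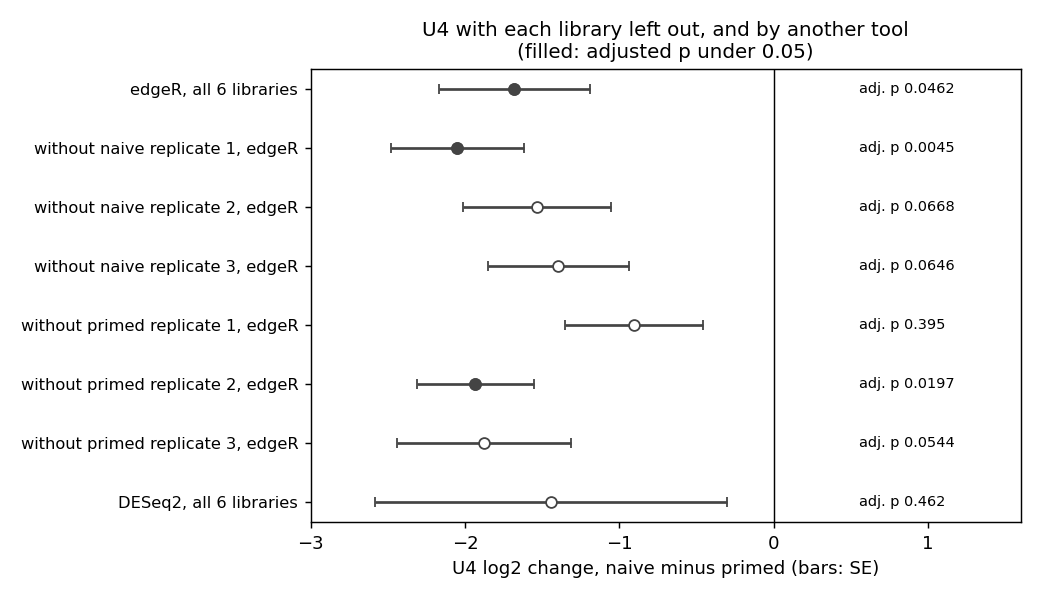
U4 log2 change, naive minus primed, with bars of 1 SE, from the edgeR fit on all 6 libraries, from fits without 1 library each, and from DESeq2. Filled points have an adjusted p under 0.05; the change is smallest, -0.91, without primed library 1.

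U5, whose loop holds the exon ends, was the rarest of the 6 by group mean, though U4 had fewer counts in primed library 2. U5 counts were 83, 171 and 123 in naive libraries 1 to 3, against 91, 4 and 103 in primed libraries 1 to 3. In CPM of total this is 8.51, 9.61 and 7.37 in naive libraries 1 to 3, against 12.7, 33.7 and 12.7 in primed libraries 1 to 3. The value of primed library 2 rests on 4 counts, with an exact 95% Poisson interval of 9.17 to 86.2 CPM. The naive libraries were all lower, with means of 8.497 ± 1.12 in naive libraries, against 19.7 ± 12.1 in primed ones (SD, n = 3 each; exact permutation p = 0.1, adjusted 0.15). Outside alpha satellite U5 was at 11.4, 16.8 and 11.2 CPM in naive libraries 1 to 3, against 12.7, 33.9 and 12.7 in primed libraries 1 to 3, and naive library 2 then exceeded primed libraries 1 and 3 (exact permutation p = 0.5). The TMM fit gave a log2 change of -0.05 ± 0.32 (SE; edgeR adjusted p = 0.931).

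U6, the catalytic RNA of the spliceosome, was at 136, 89.2 and 115 CPM of total in naive libraries 1 to 3, against 166, 92.6 and 186 in primed libraries 1 to 3. Primed library 2, with 11 counts, lay between the naive libraries, so the groups overlapped. Outside alpha satellite the naive values drew together, at 182, 156 and 175 CPM in naive libraries 1 to 3, against 166, 93.2 and 186 in primed libraries 1 to 3. Their means were 171 ± 13.3 in naive libraries, against 149 ± 48.95 in primed ones (SD, n = 3 each; exact two-sided permutation p = 0.7). U6 was the only one of the 6 with a positive log2 change in the TMM fit, 0.08 ± 0.21 (SE; edgeR adjusted p = 0.808), a sign that turned with total counts (-0.49) and with upper-quartile factors (-0.0060). Without primed library 2 it was -0.07 (edgeR adjusted p = 0.730).

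7SK was the most abundant entry of the 6, with 1048, 1070 and 933 CPM of total in naive libraries 1 to 3, against 1975, 1599 and 1617 in primed libraries 1 to 3. The naive libraries were all lower, with means of 1017 ± 73.5 in naive libraries, against 1731 ± 212 in primed ones (SD, n = 3 each; exact two-sided permutation p = 0.1, adjusted over the 6 RNAs 0.15). Outside alpha satellite it was at 1403, 1874 and 1424 CPM in naive libraries 1 to 3, against 1980, 1609 and 1622 in primed libraries 1 to 3. Naive library 2 then exceeded primed libraries 2 and 3, and the exact permutation p was 0.5. The TMM fit gave -0.08 ± 0.21 (log2, SE; edgeR adjusted p = 0.814).

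The choice of total thus decided the calls for 3 of the 6 RNAs. With total counts as the library size, edgeR called 4 of them lower: U1 at -0.73 ± 0.29 (log2, SE; adjusted p = 0.0380), U2 at -1.02 ± 0.27 (0.00121), U4 at -2.15 ± 0.27 (3.85e-13) and 7SK at -0.77 ± 0.27 (0.0154). Its SEs were alike for U2, U4 and 7SK, though U4 ran from 8.42 to 256 CPM of total in primed libraries. The U4 p-value from that fit therefore does not measure the spread of U4 itself. In that fit 32.4% of all entries were called lower and 0.87% higher, and the median of all entries was -0.61. With counts outside alpha satellite as the library size 1 was called, U4 at -1.64 ± 0.35 (edgeR adjusted p = 0.00244). There 9.97% of all entries were called lower and 3.39% higher, and the median of all entries was -0.0094. U2 at -0.39 ± 0.20 (0.197), 7SK at -0.15 ± 0.20 (0.676), U1 at -0.11 ± 0.23 (0.800), U5 at -0.06 ± 0.33 (0.937) and U6 at 0.08 ± 0.20 (0.843) did not pass in that edgeR fit.

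**Figure D3:**
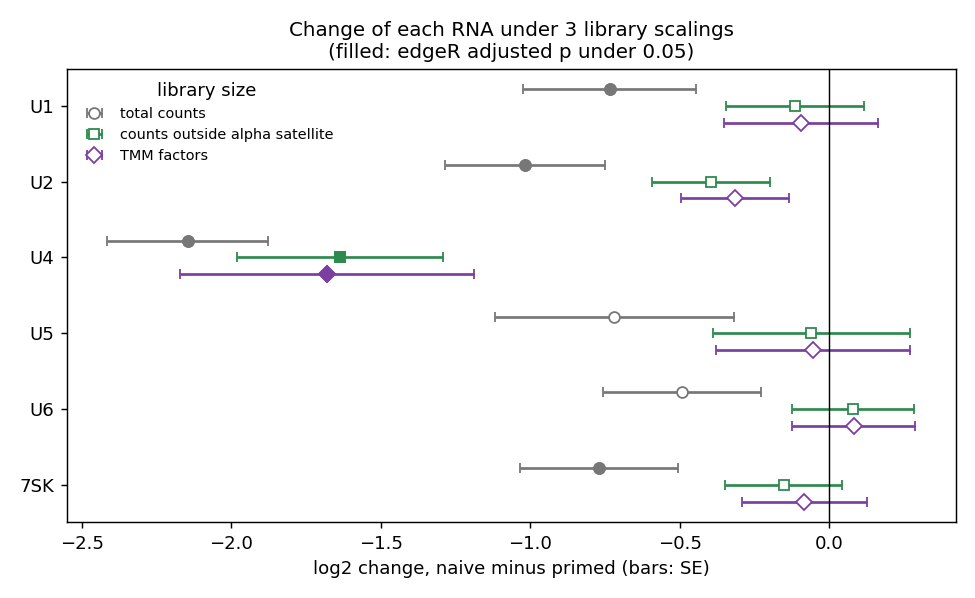
Log2 change of each RNA, naive minus primed, from edgeR with total counts (circles), counts outside alpha satellite (squares) or TMM factors (diamonds) as the scaling, with bars of 1 SE. Filled symbols have an adjusted p under 0.05: U1, U2, U4 and 7SK with total counts, and U4 alone with each of the others.

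Ratios of 2 RNAs within a library do not depend on the total. U4 over U6, partners in 1 particle, was 0.433, 0.272 and 0.204 in naive libraries 1 to 3, against 1.54, 0.130 and 0.695 in primed libraries 1 to 3 (0.5 added to each count). The groups overlapped through primed library 2, and the mean log2 difference of -0.85 did not pass (exact two-sided permutation p = 0.5). It was -0.06 without primed library 1 and -1.84 without primed library 2. U4 over U5 was 6.88, 2.52 and 3.16 in naive libraries 1 to 3, against 20.1, 0.333 and 10.1 in primed libraries 1 to 3 (log2 difference -0.10, exact permutation p = 1). The ratio in primed library 2 rests on 1 U4 and 4 U5 counts.

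U1 over U2, the RNAs of the first particles to bind an intron, was 0.104, 0.102 and 0.0722 in naive libraries 1 to 3. It was 0.0839, 0.0718 and 0.0732 in primed libraries 1 to 3. The ratio was high in naive libraries 1 and 2, while naive library 3 fell among the primed ones (log2 difference 0.27, exact two-sided permutation p = 0.3). U6 over 7SK, the pair made by RNA polymerase III, was 0.130, 0.0834 and 0.123 in naive libraries 1 to 3, against 0.0841, 0.0604 and 0.115 in primed libraries 1 to 3 (log2 difference 0.40, exact permutation p = 0.3). Adjusted over the 4 ratios, p lay between 0.6 and 1.

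**Figure D4:**
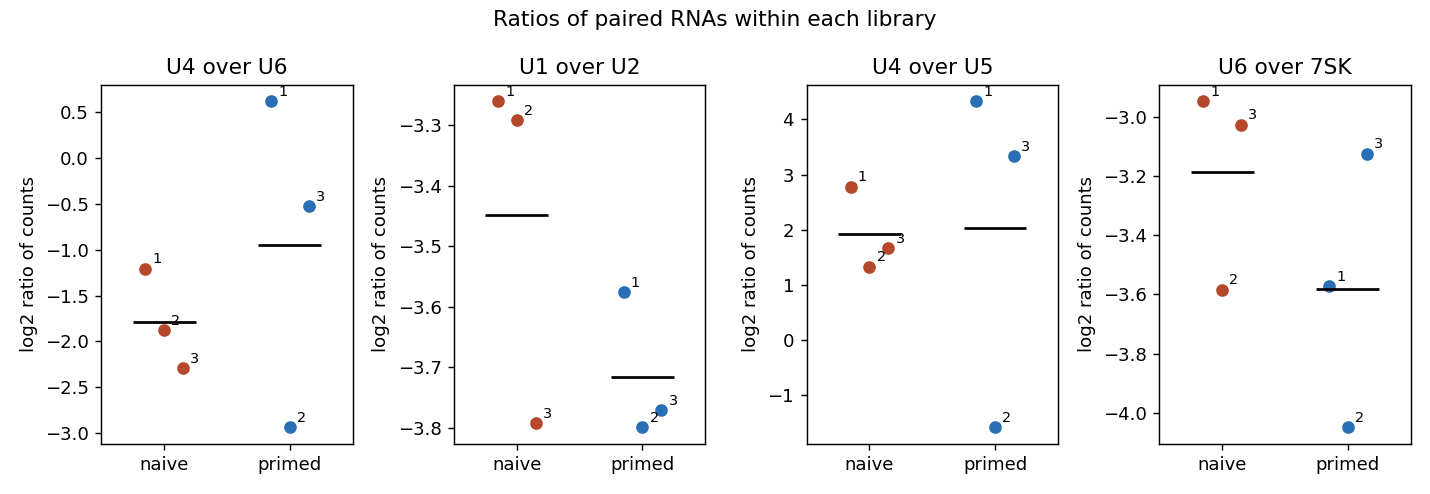
Log2 ratio of counts of 4 pairs of RNAs in each naive (left) and primed (right) library, with 0.5 added to each count. Numbers are libraries and black lines group means; the groups overlap in all 4 panels, and primed library 2 gives the lowest ratio of U4 to U6 and of U4 to U5.

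As parts of the 6 together, 7SK held 64.5% ± 1.22 in naive libraries, against 61.1% ± 2.77 in primed ones (SD, n = 3 each), without overlap, from 63.7% to 65.9% in naive and from 57.9% to 62.9% in primed libraries. U2 held 23.4% ± 1.67 in naive libraries, against 26.65% ± 4.21 in primed ones. U6 held 7.20% ± 1.498 in naive libraries, against 5.18% ± 1.504 in primed ones, and U4 held 2.23% ± 1.18 in naive libraries, against 4.35% ± 3.89 in primed ones. These parts were not tested. The 95% Wilson interval of the 7SK part in primed library 2, from 57.3% to 68.2%, covers all naive values.

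Per length of the reference RNA, the order of group means was 7SK, U2, U6, then U4 and U1, and U5 last. Each entry holds copies of other lengths too, so these levels, in CPM outside alpha satellite per kilobase, are approximate. Recovery of RNAs of different lengths was not tested, so the order is one of read counts and not of RNA amounts on chromatin. In naive libraries 7SK was at 4777 ± 811, U2 at 2977 ± 564, U6 at 1598 ± 124, U4 at 371 ± 165, U1 at 323 ± 94.2 and U5 at 113 ± 27.4 (SD, n = 3). In primed libraries 7SK was at 5296 ± 641, U2 at 3920 ± 268, U6 at 1388 ± 458, U4 at 932 ± 879, U1 at 339 ± 25.04 and U5 at 170 ± 105. U4 and U1 overlapped in both groups, and in primed libraries U4, from 60.1 to 1817, also overlapped U6 and U5. The other neighbours did not overlap.

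**Figure D5:**
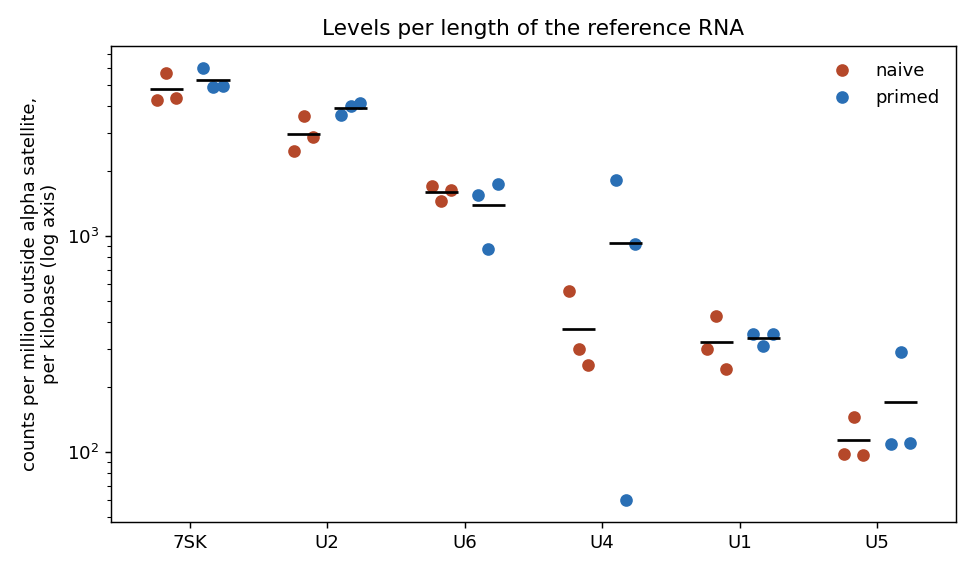
Levels of the 6 RNAs in naive (left of each pair) and primed (right) libraries, in CPM outside alpha satellite per kilobase of the reference RNA, on a log axis. Points are libraries and lines group means. By group mean 7SK and U2 lie highest and U5 lowest, while U4 in primed libraries spans from 60.1, below every U5 value, to 1817.

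Among 977 other named repeats with a mean of at least 20 CPM, the profiles most like each RNA were found by the root mean square difference of centred log2 values over the 6 libraries. U6 had the closest neighbours, Tigger3d at 0.0527, Charlie17 at 0.0916 and LTR61 at 0.115, against a median of 0.444 over all those repeats. For 7SK they were MER34-int at 0.0745, LTR5 at 0.147 and LTR27 at 0.159, against 0.382. MER34-int was also nearest to U1, at 0.147 (then MER67C at 0.219 and PABL_A-int at 0.219), and to U2, at 0.157 (then MER57E3 at 0.171 and MER4E at 0.175). U5 had LTR19B at 0.184, MER67D at 0.229 and AluYa5 at 0.239. U4 had the largest distances, with AluYk3 at 0.740, REP522 at 0.751 and TAR1 at 0.897 the closest, against a median of 1.67. Its own root mean square spread was also large, at 1.66 against 0.286 for U2, and these distances are not scaled by that spread. Shared depth and scaling enter all of these distances. On the TMM scale U6 ran from 134 to 151 CPM in every library but the shallow primed library 2, at 61.5 from 11 counts. Its centred profile is thus mainly a dip in that library.

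A fixed list of other small non-coding RNAs, without transfer RNAs, held 14 entries: nucleolar RNAs, U7, 7SLRNA, 5S, BC200 and the Y RNAs. Of these, edgeR tested 13 (all but U8). With TMM factors 0 were called higher and 1 lower by edgeR, U17, a nucleolar RNA of ribosomal RNA processing, with 0 higher and 3 lower at an unadjusted p under 0.05. That 1 of 13 stands beside 7.77% of all entries called lower at an adjusted p under 0.05. The share of all entries lower at an unadjusted p under 0.05 is not reported here, so the 3 have no such value beside them. DESeq2 called 0 of 14, with 0 higher and 3 lower at an unadjusted p under 0.05. It gave no adjusted p for U8 and HY5, so these could not be called. U17 was at 108, 62.5 and 31.2 CPM of total in naive libraries 1 to 3, against 337, 143 and 392 in primed libraries 1 to 3. All naive libraries were below all primed ones there, while outside alpha satellite naive library 1, at 145, was level with primed library 2, at 144, which rests on 17 counts. U17 fell with a log2 change of -1.62 ± 0.41 (SE; edgeR adjusted p = 0.0302). 7SLRNA, the RNA of the signal recognition particle, gave -0.48 ± 0.24 (log2, SE; edgeR adjusted p = 0.189). The median of the 13 was -0.37, against -0.0046 for all tested entries. With total counts 8 of the 13 were called lower, beside 32.4% of all entries. With counts outside alpha satellite 1 was called lower, beside 9.97% of all entries, U17 at -1.65 (edgeR adjusted p = 6.06e-04).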

How the data were processed

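RNA of the chromatin fraction was extracted on columns and made into libraries with a directional kit, per the labels' protocols. The submitters' processing notes name Trimmomatic 0.39, STAR 2.7.8a, featureCounts and Subread 2.14.2. No genome build is named in the sources used here. The deposited values are raw counts per repeat name: whole numbers with a different sum in each library, with no normalization by the authors visible in them.

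Columns were matched to samples by title. Shares were taken of total counts and of counts outside ALR/Alpha, and group means compared by exact two-sided permutation tests in SciPy 1.17.1. The count test was edgeR 4.0.16 in R 4.3.3 (TMM, filterByExpr, quasi-likelihood test, naive over primed, Benjamini-Hochberg over 3219 entries). The SE is the log2 change over the square root of F. DESeq2 1.42.0 was an alternative, as were other scalings, filters, thinning to 118793 counts, the replicate block and leaving out each library. The edgeR fit was run on counts simulated from its own dispersion trend, which checked only that log2 changes were recovered. Calls for entries as spread out as U4 were not checked that way. The 6 members, the lists and the tests were chosen with earlier results of these data known. All 6 members are named, and of the other small RNAs those called and 7SLRNA, with the 3 closest profiles per member (log2 prior count 2). Poisson and Wilson intervals are for counting error alone: without molecular identifiers, reads need not be separate molecules. Sequences come from GENCODE 29 transcripts, and those of U5 and U6 are not reported here. Python 3.11.15 with matplotlib 3.10.9 made the figures.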

Additional observations from a re-analysis of the deposited data

How the results depend on the processing

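With total counts only, the log2 changes of U1 (-0.73), U2 (-1.02) and 7SK (-0.77) passed, and U6 was at -0.49. There 4 members and 8 of the listed other small RNAs were called lower, beside 32.4% of all entries. The U4 call was lost with simple repeats left out (-1.98), by DESeq2 (-1.44), by DESeq2 on the main filter (-1.445) and with all libraries thinned (-1.15), so that 0 members were called lower in each of these, and in the edgeR fits without naive library 2 or 3 or primed library 1 or 3. U6, at 0.08 by edgeR, was below 0 with upper-quartile factors (-0.0060), with ribosomal RNA also outside the library size (-0.022), with simple repeats left out (-0.17) and with thinning (-0.058). Thinning left U1 and U5 below the filter. The causes of these shifts were not tested.

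Without 1 library each, the edgeR log2 change ranged from -0.39 to 0.16 for U1, -0.52 to -0.16 for U2, -2.05 to -0.91 for U4, -0.33 to 0.13 for U5, -0.065 to 0.20 for U6 and -0.27 to 0.13 for 7SK, with 0 to 1 members called lower. Shares of total counts kept their sign in all 9 alternatives for each of the 6. The sign flips over pairs, counted among these, have the same mean difference by construction, so their sign could not turn. Outside alpha satellite the difference in CPM ranged from -11.2 to 3.94 for U1, -141 to -16.6 for U4, -10.2 to 0.440 for U5 and -5.24 to 41.2 for U6, the sign turning without naive library 3 for U1 and without primed library 2 for U5 and U6. U4 over U6 ranged from -1.84 to -0.06 and U4 over U5 from -1.91 to 1.05 (log2). A group of 2 against 3 cannot go below an exact p of 0.2.

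Over all entries edgeR called 409. It called 1071 with total counts only, 860 with no filter, 48 with simple repeats left out, 651 without naive library 1, 178 without naive library 2, 15 without primed library 1 and 2 after thinning. DESeq2 called 209, or 223 on the main filter. With the replicate block 638 were called, and U4 stayed called at -1.53 (edgeR adjusted p = 5.55e-18), the other 5 members not. The SE of U4 there, 0.165, was close to that of U2, 0.151, so this p-value does not measure the spread of U4 itself. Of the listed other small RNAs the block fit called U17 (-1.70), 7SLRNA (-0.41, edgeR adjusted p = 0.0473) and HY1 (-0.48, 0.0323) lower. Their SEs, 0.168, 0.156 and 0.173, were also close to that of U2, so these p-values need not measure the spread of each RNA. With TMM factors and no block, 7SLRNA (edgeR adjusted p = 0.189) and HY1 (0.0589) did not pass. The share of all entries called lower by the block fit is not reported here. Same-numbered libraries deviated together with correlations across entries of 0.146, 0.0867 and 0.0659, each library correlating best with its own number. Those of unlike numbers lay between -0.107 and -0.00325. The labels do not say that the numbers mark a shared culture or day, so the main fit did not take them as pairs. Whether they are pairs was not settled. Sign flips over 3 pairs cannot go below 0.25.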
